A study of Mus musculus with 22 samples.

Results

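The mitochondrial ribosomal proteins are the nuclear-encoded proteins of the ribosome inside mitochondria. They were taken as all probes whose gene symbol in the platform annotation begins with Mrpl or Mrps followed by a number. The rule used names only, and it found 110 probes of 76 genes among the 25697 probes of 16593 genes on the array. By textbook class, 49 of the genes encode proteins of the large subunit and 26 proteins of the small subunit. Mrps36, the remaining gene, encodes a component of the 2-oxoglutarate dehydrogenase complex despite its name.

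The levels come from 22 Illumina bead arrays. All mice were C57BL/6J, and the mutants carried a mutation of Sgms1, the gene of sphingomyelin synthase 1. Testis was taken at 27 weeks from 4 wild-type and 4 mutant mice, and brain and muscle at 17 weeks from another 3 wild-type and 4 mutant mice, each of which gave both tissues. All the arrays carried whole-tissue RNA of mice of 1 strain that had no treatment in the labels, and the kind of mutation and the muscle sampled are not given in the sources used here. Testis therefore differs from the other tissues in age and in mice as well, which cannot be told apart from tissue.

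As background, the mitochondrial ribosome translates the few proteins that mitochondrial DNA encodes, all of them membrane subunits of the respiratory chain and of ATP synthase. Its RNA comes from mitochondrial DNA, while every protein of it is made in the cytosol from nuclear genes and imported. Some of these proteins descend from the bacterial ribosome and others were added in the mitochondrial lineage. Skeletal muscle and brain both depend on oxidative phosphorylation, and spermatogenic cells reshape their mitochondria as they mature.

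Promoter windows of these genes are shown first, since the same nuclear genes are compared across tissues throughout. RefSeq promoter sequences of build GRCm38.p6 were at hand for 67 of the 76 genes, as the 250 bases before each listed transcription start. A gene with several listed starts counted once, as holding a motif if any of its windows did. Both strands were searched for 4 motifs. The consensus motif of NRF1 (nuclear respiratory factor 1, a regulator of mitochondrial genes) was present in 9 of the 67 genes. That was 13.4%, against 4.23% of all 27025 genes with windows of the same length. The ETS motif CCGGAAGT, which GABP also binds, was present in 10 genes (14.9% against 3.23%). The YY1 motif AAGATGGC was present in 4 genes (5.97% against 1.83%), and the TATA box TATAAA in 5 (7.46% against 14.3%). The median content of G and C, averaged over the windows of a gene, was 58.4% in these genes and 52.4% in all genes. Such matches describe letters and do not show binding. The 4 windows below belong to genes named in the results, Mrpl30, Mrps21 and Mrpl12 with an NRF1 match and Mrpl27 with an ETS match. Each runs 5′ to 3′ on the strand given, and the capitals mark the motif match.
Mrpl30 chr1:37890227-37890476 (+): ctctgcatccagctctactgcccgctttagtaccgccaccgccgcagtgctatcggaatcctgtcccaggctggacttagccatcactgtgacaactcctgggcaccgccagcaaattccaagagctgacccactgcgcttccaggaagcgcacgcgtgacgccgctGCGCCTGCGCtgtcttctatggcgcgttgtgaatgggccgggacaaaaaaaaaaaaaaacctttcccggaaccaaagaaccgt
Mrps21 chr3:95871515-95871764 (-): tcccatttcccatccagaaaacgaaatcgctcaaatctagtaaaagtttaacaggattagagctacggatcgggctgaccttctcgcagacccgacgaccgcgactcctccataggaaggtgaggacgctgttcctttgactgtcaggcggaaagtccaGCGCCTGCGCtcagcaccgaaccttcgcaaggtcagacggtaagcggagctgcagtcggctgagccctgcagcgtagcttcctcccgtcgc
Mrpl12 chr11:120484387-120484636 (+): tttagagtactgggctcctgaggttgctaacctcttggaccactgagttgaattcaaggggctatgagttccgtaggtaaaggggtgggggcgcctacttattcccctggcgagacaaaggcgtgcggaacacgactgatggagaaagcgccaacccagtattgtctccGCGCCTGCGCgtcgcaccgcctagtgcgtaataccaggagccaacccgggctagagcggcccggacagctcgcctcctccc
Mrpl27 chr11:94653541-94653790 (+): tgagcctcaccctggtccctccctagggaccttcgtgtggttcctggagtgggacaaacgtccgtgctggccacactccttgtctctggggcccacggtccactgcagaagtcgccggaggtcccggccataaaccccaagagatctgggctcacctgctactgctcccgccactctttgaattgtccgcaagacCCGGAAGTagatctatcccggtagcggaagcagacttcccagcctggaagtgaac

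The NRF1 match lay 83 to 74 bases before the listed start in Mrpl30, 91 to 82 bases before it in Mrps21 and 81 to 72 bases before it in Mrpl12. The ETS match of Mrpl27 lay 55 to 48 bases before its listed start, base 94653791, which is 21 bases inside the gene as annotated. Mrpl46 and Mrps11 start head to head on chromosome 7, and their windows share 41 bases, chr7:78783090-78783130. These genes did not share 1 pattern across tissues. Mrpl30 was lower in brain than in muscle and Mrps21 and Mrpl27 were lower in testis than in both other tissues, as given below.

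Levels are log2 intensities after background correction and quantile normalization, and a difference of 1 on this scale is a doubling. They compare 1 probe between samples, never 1 gene with another. Comparisons kept probes detected (p under 0.05 by the deposited value) on a minimum of 3 arrays. Of the 110 probes, 76 were detected on all 22 arrays and 8 on 0 arrays. At least 1 tissue kept 99 probes of 72 genes, and the 4 genes that no tissue kept were Mrpl19, Mrpl21, Mrpl32 and Mrps36. Testis kept 89 probes, brain 97 and muscle 97.

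Some arrays stood apart, and they touch the results as follows. Array medians of raw intensity lay between 93.7 and 107 in testis, 112 to 143 in brain and 133 to 143 in muscle, but the 95th percentile ran from 250 to 553, 1278 to 2226 and 671 to 901. Brain arrays thus had a far brighter upper range, and the choice of scaling moves every comparison between tissues. The labelled tissues carried their markers, with 7 of 7 testis, 8 of 8 muscle and 5 of 7 brain marker genes detected on all their arrays; the probes of Snap25 and Nefl were detected on 0 brain arrays. Sgms1 itself was lower in every mutant muscle array (7.13 to 7.50) than in every wild-type one (7.77 to 8.12), a difference of -0.70 (SE 0.13) that missed the threshold (adjusted p = 0.0871). In brain, wild type 3 (6.64) lay with the mutants and mutant 2 (8.14) with the wild types, so calls lost, and values moved by over 1.5 times, without them are given beside the results. In testis the groups overlapped, with wild type 2 (5.43) below mutants 2 and 4 (both 5.89), and the difference was -0.62 (SE 0.27, adjusted p = 0.834). Testis wild type 2 also had the dimmest upper range (a 95th percentile of 250, beside 437 to 553 on the other testis arrays), and brain wild type 1 the brightest (2226, beside 1278 to 1514). Without testis wild type 2 the calls were 86 of 99 probes against brain (85.0% of all probes) and 89 of 98 against muscle (86.0%). Without brain wild type 1 testis minus brain had 84 of 99 (82.8% of all probes). The mean level of adipocyte markers in muscle was 6.82 to 7.51 in wild type and 5.62 to 6.37 in mutants, and wild-type muscle 1 and 3 had signal of the brown fat gene Ucp1.

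Within the same 7 mice, transcripts of the mitochondrial ribosome were mostly lower in brain than in muscle. Of 98 probes kept, 89 passed limma's test at an adjusted p under 0.05, where 79.8% of all probes did. In brain 85 of them were lower (40.3% of all probes) and 4 higher (39.5% of all probes). The median over the 98 probes was -0.79, while that of all 16073 probes was 0.00. Differences of at least 1, or 2-fold, that passed counted 41 probes lower (17.9% of all probes) and 0 higher (17.8%).

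The direction of this family depends in part on the scaling. Scaling by medians moved the difference of all probes to 0.34 and that of these probes to -0.11, which is 0.46 below all probes. It called 29 higher and 44 lower. Of these calls 39.7% were higher, against 65.6% of the calls among all probes. Each mouse taken alone gave a lower level in brain under quantile normalization. The median over the probes ran from -1.04 in mutant 4 to -0.70 in wild type 3, while that of all probes was at most 0.02 from 0. In all 7 mice 76 probes were lower in brain (34.9% of all probes kept) and 2 higher (34.1%), and 20 were mixed. Without wild type 3 and mutant 2 the fit called 82 lower and 4 higher of 97, where 78.1% of all probes were called. Without wild types 1 and 3 the fit called 81 lower and 4 higher. Whole tissue cannot separate fewer cells of a type from less RNA per cell.

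**Figure D1:**
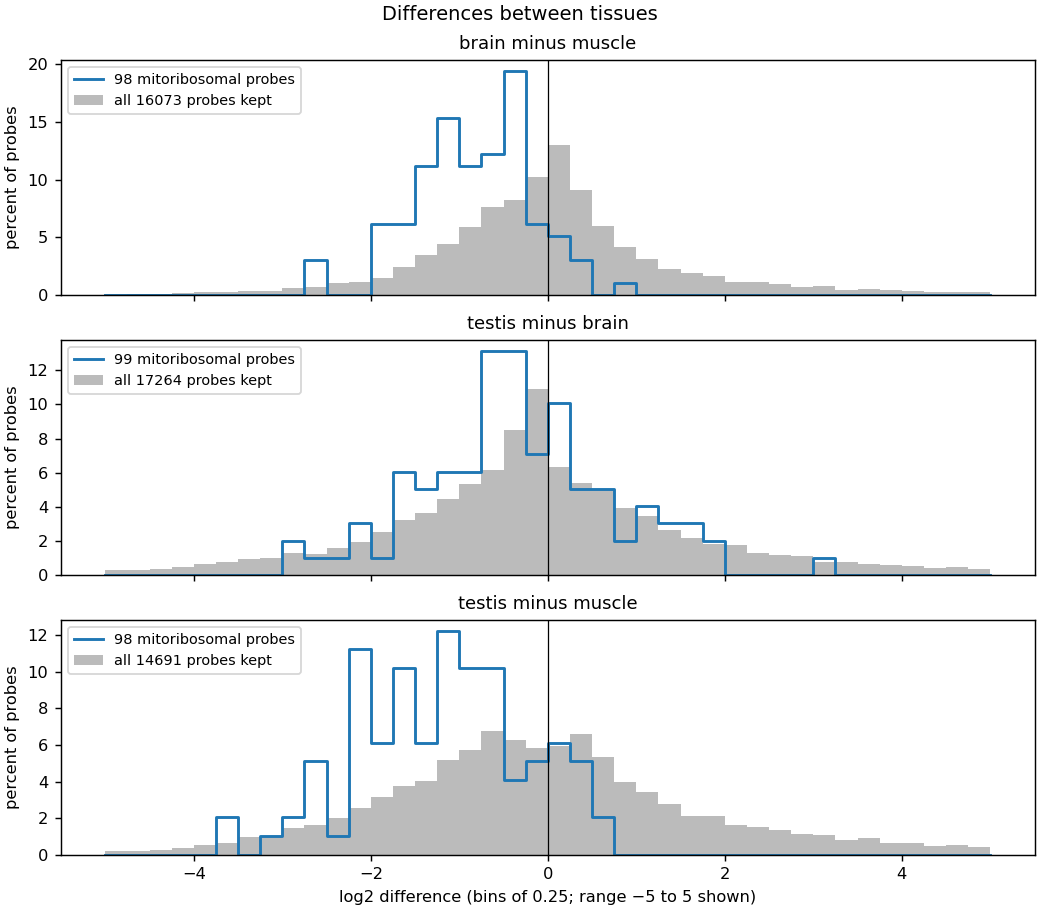
Share of probes (percent, vertical axis) by log2 difference (horizontal axis, bins of 0.25) for the 3 tissue comparisons, with mitoribosomal probes as a blue line and all probes kept as grey bars. The blue line lies left of the grey bars in brain minus muscle (median -0.79 against 0.00) and in testis minus muscle (-1.16 against -0.16), and nearer to them in testis minus brain (-0.36 against -0.16).

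The subunits were described separately. Of 62 large-subunit probes, 54 were lower in brain and 2 higher, with a median of -0.90. Of 36 small-subunit probes, 31 were lower and 2 higher, with a median of -0.63. Proteins with a bacterial counterpart had a median of -0.99 (49 of 53 probes lower), and those without one -0.58 (36 of 45 lower). The classes were not tested against each other.

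Mrpl1 (chr5:96209498-96266727) encodes a protein of the L1 stalk, which guides spent tRNA out of the ribosome. The brain arrays of its probe ILMN_2711966 had a lowest, median and highest level of 6.36, 6.61 and 6.78, and the muscle arrays 8.86, 9.27 and 9.44. No brain array reached the muscle range, and testis (9.39, 9.66 and 9.83) lay close to muscle. The difference of brain from muscle was -2.71 (SE 0.08, adjusted p = 8.13e-11), or 6.52-fold. Its other kept probe, ILMN_2747281, differed by -1.70, and a further probe, ILMN_3162866, was detected on 0 arrays.

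Mrps28 (chr3:8802146-8923857) encodes a small-subunit protein related to bacterial S1. Its levels were 6.88, 7.21 and 7.40 in brain and 9.68, 9.87 and 10.01 in muscle (lowest, median, highest). The tissues did not overlap, and the difference was -2.69 (SE 0.09, adjusted p = 1.74e-10). Testis lay at 7.43, 7.68 and 7.97, between the other tissues and nearer to brain. The difference of testis from brain, 0.51, turned sign under median scaling.

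Mrpl42 (chr10:95480805-95501949), a large-subunit protein with no bacterial counterpart, had brain levels of 8.96, 9.07 and 9.28 and muscle levels of 11.44, 11.66 and 11.74. It was lower in brain in every mouse, by 2.16 to 2.70, and the difference was -2.52 (SE 0.08, adjusted p = 7.85e-11). Testis (8.77, 8.96 and 9.17) overlapped brain. These 3 probes kept differences of -1.95, -2.001 and -2.11 under median scaling.

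The next largest differences belonged to large-subunit proteins with bacterial counterparts. Mrpl2, whose bacterial relative L2 sits beside the peptidyl transferase centre, lay between 7.25 and 7.72 in brain and between 9.33 and 9.75 in muscle (-1.997, SE 0.08). Mrpl14 ran from 7.90 to 8.20 and from 9.88 to 10.21 (-1.95, SE 0.08). Both probes of Mrpl33 showed the pattern, with differences of -1.93 and -1.79, and Mrpl30 (chr1:37890477-37898338) differed by -1.77. None of these groups of brain arrays overlapped its muscle arrays.

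**Figure D2:**
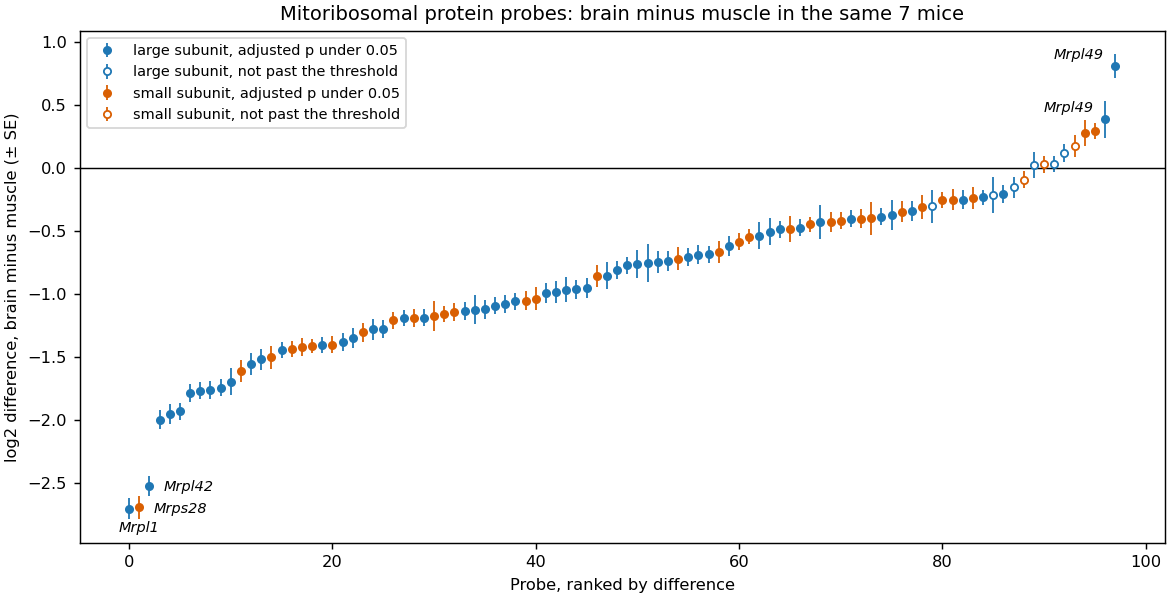
Log2 difference of brain minus muscle (vertical axis, points with SE bars) for the 98 mitoribosomal probes ranked by difference (horizontal axis), large subunit in blue and small subunit in orange, filled where adjusted p was under 0.05. Most points lie below 0, from -2.71 for Mrpl1, and the highest point is an Mrpl49 probe at 0.81.

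Only 4 probes were higher in brain. Mrpl49 (chr19:6053630-6057755), a large-subunit protein without a bacterial counterpart, had 2 of them and also 2 probes that were lower. Its probe ILMN_2634295 lay between 8.67 and 9.06 in brain and between 7.83 and 8.26 in muscle, without overlap (0.81, SE 0.09, adjusted p = 7.32e-06). Its probe ILMN_2929031 was higher by 0.39 (SE 0.15, adjusted p = 0.0316), overlapped, was detected on only 3 of the 7 muscle arrays, and lost its call in 5 of the 7 fits that left out 1 mouse (adjusted p up to 0.0936). Without wild type 3 and mutant 2 it was 0.60. Its probes ILMN_2701363 (-0.75, SE 0.09) and ILMN_2628672 (-0.76, SE 0.11) went the other way, though under median scaling the former was -0.06 (adjusted p = 0.536) and the latter turned to 0.03. No statement on the level of Mrpl49 as a whole follows from probes that disagree.

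Mrps33 (chr6:39801804-39810936), a small-subunit protein without a bacterial counterpart, was the other gene without overlap. Its probe ILMN_3163302 lay between 10.79 and 11.03 in brain and between 10.46 and 10.69 in muscle (0.29, SE 0.06, adjusted p = 0.00122), and its second probe differed by 0.17 (adjusted p = 0.0873). Mrps6, named after its value was seen, was higher by 0.28 (SE 0.10, adjusted p = 0.0239) with overlap. Its difference was 0.29 to 0.73 in the 4 mutants and -0.04 to 0.06 in the 3 wild types, and the test between genotypes did not pass (adjusted p = 0.37).

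Mrpl12 and the Mrps18 genes, named whatever their values, were lower in brain like the majority. Mrpl12 (chr11:120484637-120488754), a stalk protein that also binds the mitochondrial RNA polymerase, lay between 9.34 and 9.79 in brain and between 10.43 and 10.73 in muscle (-0.99, SE 0.08, adjusted p = 2.92e-07). Mammals have 3 relatives of bacterial S18, of which Mrps18a sits in the large subunit and the others in the small one. Mrps18a differed by -1.06, Mrps18b by -1.42 and -1.50 on its 2 probes, and Mrps18c by -0.86, each without overlap. The value of Mrps18c fell to -0.13 (adjusted p = 0.295) under median scaling.

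Testis was compared with each of the other tissues, and both comparisons use the same 8 testis arrays. Against muscle, 89 of 98 probes passed (84.7% of all probes), 83 of them lower in testis (46.1%) and 6 higher (38.6%). The median was -1.16, and -0.16 over all probes. Lower by at least 1 were 56 probes (29% of all probes), and 0 were higher by that much (24.5%). Median scaling moved all probes to -0.28 and these probes to -1.69, with 90 lower and 1 higher. Of these calls 1.1% were higher, against 37.9% of the calls among all probes.

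Against brain probes of both directions were found. Of 99 probes, 84 passed (83.7% of all probes), 58 lower in testis (58.6%, against 47.5% of all probes) and 26 higher (26.3%, against 36.2%). The median was -0.36 against -0.16 over all probes. With median scaling only 4 probes were higher and 84 lower, the median was -1.62, and that of all probes was -0.67. Of these calls 4.5% were higher, against 32.1% of the calls among all probes. Under quantile normalization the shares were 31.0% and 43.3%. The split between testis and brain thus depends on the scaling.

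Mrps21 (chr3:95862634-95871514), a small-subunit relative of bacterial S21, was far lower in testis. Its levels were 5.83, 6.19 and 6.59 in testis, 8.86, 9.10 and 9.37 in brain, and 9.54, 9.78 and 10.01 in muscle (lowest, median, highest). The tissues did not overlap. Testis differed from brain by -2.93 (SE 0.12, adjusted p = 3.26e-13) and from muscle by -3.60 (SE 0.12, adjusted p = 7.88e-15), the latter 12.1-fold.

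Mrpl50 (chr4:49512597-49521083), a large-subunit protein with no bacterial counterpart, gave the same order. Testis lay at 5.86, 6.36 and 6.86, brain at 9.13, 9.27 and 9.33 and muscle at 9.83, 9.97 and 10.07. The differences were -2.86 from brain (SE 0.12, adjusted p = 3.82e-13) and -3.55 from muscle (SE 0.13, adjusted p = 3.34e-14). Testis stood below both other tissues without overlap.

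Mrpl27 (chr11:94653770-94661932), whose bacterial relative L27 reaches the peptidyl transferase centre, had testis levels of 5.43, 6.12 and 6.78. Brain (8.64, 8.82 and 8.84) and muscle (8.63, 8.77 and 8.82) overlapped each other and lay above every testis array. Testis differed by -2.74 from brain (SE 0.14) and -2.71 from muscle (SE 0.15), and brain from muscle by 0.03 (adjusted p = 0.682). Mrpl27 was thus low in testis while its brain and muscle levels did not pass the test.

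Further probes much lower in testis were shared between the comparisons or belonged to 1 of them. Both Mrps33 probes differed from brain by -2.25 and -2.14 and from muscle by -1.96 and -1.96. Mrpl23, a protein at the exit of the peptide tunnel, differed from brain by -2.11 and from muscle by -3.19. Mrps35 (-2.18) and Mrps25 (-1.77) followed against brain, and Mrpl14 (-2.86), Mrps7 (-2.76), Mrpl42 (-2.66) and Mrps15 (-2.64) against muscle. All of these groups of arrays were without overlap, but Mrps35, Mrps25, Mrps7 and Mrps15 were detected on only 6, 5, 7 and 4 of the 8 testis arrays.

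**Figure D3:**
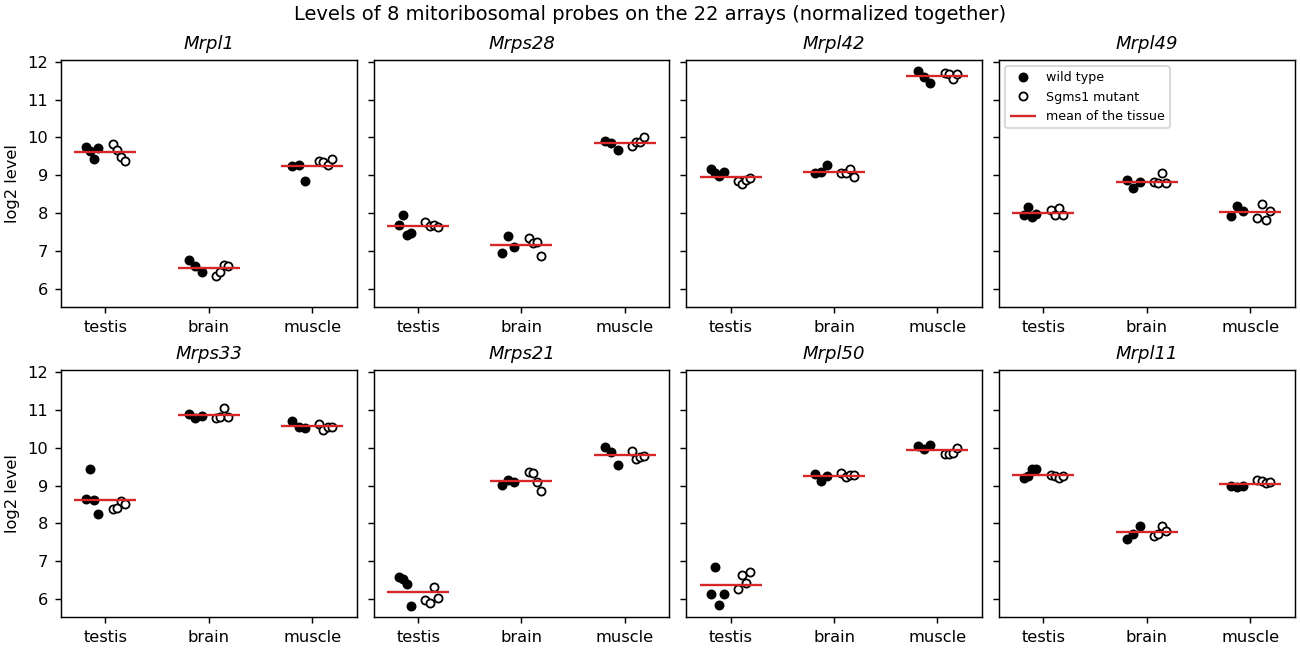
Log2 level (vertical axis) of 8 mitoribosomal probes on each array by tissue, filled for wild type and open for Sgms1 mutant mice, with a red line at the mean of the tissue. Mrpl1 and Mrpl11 are lowest in brain, Mrps28 and Mrpl42 highest in muscle, Mrps21, Mrpl50 and Mrps33 lowest in testis, and the Mrpl49 probe is highest in brain.

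Among the 26 probes higher in testis than in brain, Mrpl1 differed most. Its 2 kept probes were higher by 3.05 (SE 0.09, adjusted p = 1.23e-15) and 1.81 (SE 0.09), and the former kept 1.53 under median scaling. Against muscle these probes differed by 0.36 (adjusted p = 0.00375) and 0.13. The levels of Mrpl1 thus ran high in testis and muscle and low in brain.

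Mrpl37, a large-subunit protein of the mitochondrial lineage, was higher in testis on its probe ILMN_1254715, where testis ran from 9.53 to 11.32 and brain from 8.89 to 9.12 (1.81, SE 0.20, adjusted p = 2.7e-07). That value fell to 0.39 (adjusted p = 0.104) under median scaling. Its other probe differed by 0.35. Mrpl9 (1.53), Mrpl11 (1.51), Mrps31 (1.504 and 1.34) and Mrpl38 (1.36) were also higher without overlap, but under median scaling they fell to 0.01, -0.0072, -0.05 and -0.13, and -0.07.

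Testis was higher than both other tissues for 6 probes, or 6.12% of 98 where all probes gave 32.2%, and lower than both for 56, or 57.1% where all probes gave 32.5%. The 6 were probes of Mrpl1, Mrpl11, Mrpl47, Mrps11, Mrps14 and Mrps22, of which only Mrpl11 and Mrps11 did not overlap muscle. Mrpl11, a protein of the stalk base where translation factors bind, lay between 9.19 and 9.44 in testis and between 8.96 and 9.13 in muscle (0.24, SE 0.08, adjusted p = 0.00973), which turned to -0.52 under median scaling. Mrps11, a platform protein of the small subunit, was higher by 0.48 on ILMN_2786708 (SE 0.10), turning to -0.19 under median scaling, and differed by -0.20 on ILMN_2681946 (adjusted p = 0.0416), a call that 7 of the fits without 1 array lost, with an adjusted p up to 0.129. Mrps14, seen on 7 of 8 testis arrays and 0 of 7 brain arrays, was at least 1.75-fold higher in testis than in brain, the bound being set by the lowest detected signal of each brain array (adjusted p = 6.97e-07). Mrpl47, Mrps14 and Mrps22 were named after their values were seen.

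Mrpl12 and the S18 relatives split in testis. Mrpl12 differed from muscle by -1.25 (SE 0.10) and from brain by -0.25 (adjusted p = 0.0197). Mrps18c differed from muscle by -1.47 and from brain by -0.61. The probes of Mrps18b were higher than brain by 1.13 and 0.68 and differed from muscle by -0.30 and -0.83. Mrps18a was higher than brain by 0.23 and differed from muscle by -0.83. All of these passed the test, but without brain wild type 3 and mutant 2 the Mrpl12 value against brain did not (-0.23, adjusted p = 0.0567). With wild-type arrays alone the -0.30 of Mrps18b against muscle lost its call (adjusted p = 0.138), as did others given below. The higher values of Mrps18b and Mrps18a against brain turned to -0.37, -0.66 and -1.24 under median scaling.

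The order of the tissue means was read for 97 probes kept in the comparisons. Muscle was highest for 77 probes (79.4%, against 39.8% of all probes) and lowest for 0 (24.3% of all probes). Testis was lowest for 63 (64.9%, against 45.8%) and brain for 34 (35.1%, against 30%). The order muscle, brain, testis held for 55 probes (56.7%, against 26.7% of all probes) and muscle, testis, brain for 22 (22.7%, against 13.1%). Testis was highest for 12 (12.4%, against 31.2%) and brain for 8 (8.25%, against 29%). Neighbours in an order need not differ beyond their spread, as the Mrpl27 levels of brain and muscle show. The orders also rest on quantile normalization. Median scaling turned the sign of 26 of 89 called probes in brain minus muscle and 21 of 84 in testis minus brain. In testis minus muscle it turned 5 of 89.

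Genes with several probes give a check within the family. In brain minus muscle, 21 genes had at least 2 probes kept. The probes of 18 of them had 1 sign, and Mrpl49 was the only gene with passing probes of both signs. The median spread between the probes of a gene was 0.25, and the widest was 1.57 in Mrpl49. Against brain, testis gave 17 genes of 1 sign with a median spread of 0.59, and against muscle 18 genes with 0.51. Mrps11 had passing probes of both signs in both of these. The transcripts each probe reports were not analysed here.

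**Figure D4:**
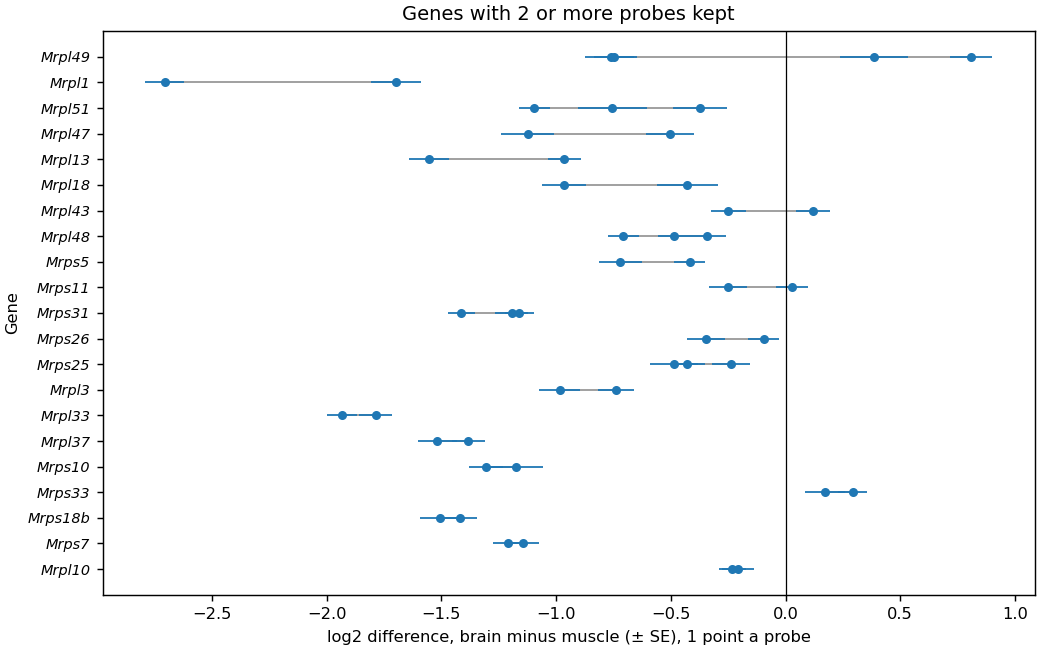
Log2 difference of brain minus muscle (horizontal axis, points with SE bars, 1 point a probe) for the 21 genes with at least 2 probes kept (vertical axis), a grey line joining the probes of a gene. Probes of most genes lie on 1 side of 0, and those of Mrpl49 run from -0.76 to 0.81.

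The other genes of mitochondrial protein synthesis were read from lists chosen with earlier results of these data known. Of 21 probes of translation factors, which load, move and release tRNA and mRNA on this ribosome, 18 were lower in brain than in muscle and 0 higher, with a median of -0.85. The elongation factors Gfm1 (-2.05) and Tufm (-1.47), the ribosome recycling factor Gfm2 (-2.70) and a probe of the release factor Mtrf1 (-2.04) were among the lower ones. Of 23 probes of assembly factors, 19 were lower and 3 higher (median -0.81), with the rRNA methyltransferase Nsun4 at -1.79 and the helicase Dhx30 at 1.08. Of 15 probes of mitochondrial tRNA synthetases, 11 were lower and 3 higher (median -0.70). Of 18 probes for copying and transcription of mitochondrial DNA, 14 were lower and 2 higher (median -0.38). Of 16 probes for mitochondrial RNA processing, 12 were lower and 1 higher (median -0.64). Of all probes 40.3% were lower and 39.5% higher, and under median scaling 65.6% of the calls among all probes were higher. Median scaling, which moved all probes to 0.34, brought the splits of these 5 lists, in the same order, to 6 higher and 11 lower, 8 and 9, 6 and 6, 9 and 6, and 5 and 4, while the 6 probes named here, which are among the most different of their lists, had -1.94 (Gfm2), -1.26 (Gfm1), -1.02 (Tufm), -1.23 (Mtrf1), -1.11 (Nsun4) and 1.83 (Dhx30).

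Against muscle, where 46.1% of all probes were lower in testis and 38.6% higher, testis gave lower levels for 15 of 20 translation factor probes (1 higher, median -1.17), 15 of 23 assembly probes (4 higher, median -0.71) and 11 of 15 RNA processing probes (1 higher, median -1.17). Synthetases gave 8 lower and 2 higher of 13, and the DNA list 9 lower and 4 higher of 18. Under median scaling at least 9 probes of each list were lower and at most 2 higher, where 37.9% of the calls among all probes were higher. Against brain, where 47.5% of all probes were lower and 36.2% higher, the lists differed, with 6 higher and 9 lower of 21 translation factor probes and 13 higher and 8 lower of 24 assembly probes, which median scaling turned to 2 and 16, and to 1 and 19. Synthetases gave 5 higher and 5 lower, the DNA list 7 and 7, and RNA processing 3 higher and 11 lower of 16 (median -0.32). Median scaling turned these, in the same order, to 2 higher and 11 lower, 4 and 14, and 1 and 12. Among all probes 32.1% of the calls against brain were higher under that scaling. Between genotypes these 5 lists gave 0 calls in each tissue. The translation factor medians were 0.06 in testis, 0.00 in brain and 0.01 in muscle.

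The mutation of Sgms1 changed no mitoribosomal probe past the threshold in any tissue. In testis 0 of 89 probes passed limma's adjusted test (0% of all probes), in brain 0 of 97 (0%) and in muscle 0 of 97 (0.105%). Without adjustment, p was under 0.05 for 7 probes in testis (5.53% of all probes), 1 in brain (3.85%) and 8 in muscle (9.18%). The median difference was -0.09 in testis (0.02 over all probes), 0.02 in brain (0.00) and 0.00 in muscle (0.01). Sizes of at least 1 occurred in 0 probes, and the median SE of a probe was 0.15, 0.11 and 0.12.

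In testis the differences were more often below than above 0. Below 0 were 60 of 89 probes (45.8% of all probes), all 7 at an unadjusted p under 0.05 were lower (3.06% of all probes), and 5 probes were lower without overlap (1.72%). Median scaling turned the median to 0.08, beside 0.12 over all probes, and 54 of the 89 probes then lay below the median of all probes. On levels normalized within the tissue, as for all genotype values, the largest of them without overlap was Mrpl27, with 5.40, 5.64, 5.33 and 5.35 in wild type and 4.83, 4.74, 4.99 and 4.87 in mutants. Every mutant array lay below every wild-type array, but the difference of -0.57 (SE 0.12) had an adjusted p of 0.751. Over the other settings the Mrpl27 difference ran from -0.87 to -0.17. Mrps16 did not overlap either, with 6.07 to 6.12 in wild type and 5.60 to 5.88 in mutants (-0.35, SE 0.12, adjusted p = 0.834). Mrpl55 had the largest difference (-0.63, SE 0.22), with overlap. The testis marker genes differed in the same direction, with a median of -0.20 over 12 probes and 0 passing, and mean levels of 11.82 to 12.23 in wild type and 11.61 to 12.00 in mutants. Their part in these values was not tested.

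In muscle Mrps27 (chr13:99344767-99415562) came nearest to the threshold. It encodes a small-subunit protein with RNA-binding pentatricopeptide repeats. Its levels were 5.56, 5.59 and 5.44 in wild type and 6.31, 6.26, 5.99 and 6.32 in mutants. All mutants lay above all wild types, with a difference of 0.69 (SE 0.12, adjusted p = 0.0634). Without muscle mutant 3 it was 0.77 and passed (adjusted p = 0.0369), and the adjusted p ran up to 0.695 over the other settings. In brain the same probe differed by 0.46 (SE 0.22), with wild type 3 at 7.35 and the other wild types at 6.21 and 6.54, and mutants at 6.93 to 7.38. Wild type 3 is a library whose Sgms1 opposed its label. Without it the brain value was 0.79 (adjusted p = 0.308), and without mutant 2 as well 0.81 (adjusted p = 0.359). Leaving out brain wild type 1 instead gave 0.22 (adjusted p = 0.999), so the brain value hangs on single wild-type arrays.

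With Mrps27 included, the muscle probes without overlap went both ways, 9 higher (4.4% of all probes) and 5 lower (4.48%). The Mrpl1 probe ILMN_2747281 was 5.50, 5.20 and 5.22 in wild type and 5.84, 5.68, 5.70 and 6.04 in mutants (0.51, SE 0.13, adjusted p = 0.21). Mrps6, a small-subunit protein, was 8.34, 8.21 and 8.41 in wild type and 7.99, 8.00, 7.99 and 7.93 in mutants (-0.35, SE 0.10, adjusted p = 0.281). Mrpl47 was higher in mutants by 0.52 (adjusted p = 0.327) and the Mrps10 probe ILMN_2691360 by 0.35 (adjusted p = 0.34). The adipocyte marker level also separated the muscle genotypes. Slow fibre markers had a genotype median of 0.68 over 9 probes, 0 of which passed, with mean levels of 6.76 to 7.50 in wild type and 6.64 to 9.04 in mutants. The part of either in these values was not tested.

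In brain the probe of smallest p was Mrpl52, with 8.38, 8.54 and 8.27 in wild type and 8.66, 9.00, 8.82 and 8.52 in mutants. The groups overlapped (0.35, SE 0.13, adjusted p = 1), and the value was 0.21 without brain wild type 3 and mutant 2. Mrpl12, Mrps18a, Mrps18b and Mrps18c differed between genotypes by -0.27 to 0.18 over the 3 tissues, with no call. Without brain wild type 3 and mutant 2 the brain count stayed 0, with a median of -0.01.

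**Figure D5:**
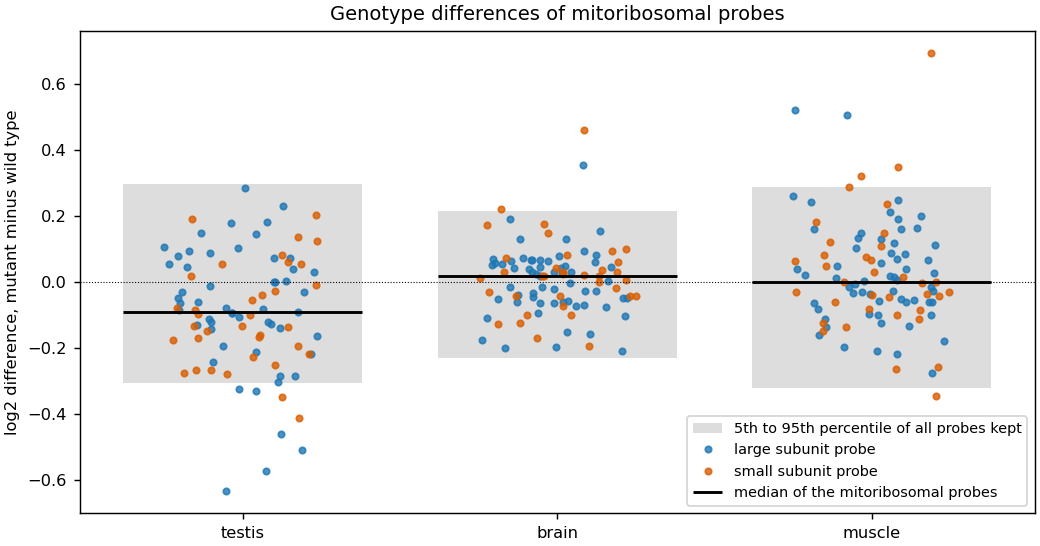
Log2 difference of mutant minus wild type (vertical axis) of each mitoribosomal probe by tissue, large subunit in blue and small in orange, with a black line at their median and a grey band from the 5th to the 95th percentile of all probes kept. The medians are -0.09, 0.02 and 0.00, and most points lie inside the band.

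Tests of whether the genotype difference itself differed between tissues called 0 of 96 probes for brain against muscle (0.0378% of all probes), 0 of 87 for testis against brain (0%) and 0 of 88 for testis against muscle (0%). Without adjustment, p was under 0.05 for 7, 4 and 4 probes, beside 7.48%, 4.22% and 6.74% of all probes. These tests used all arrays normalized together, unlike the genotype values above, so the sizes are not on the same footing. The smallest p-values belonged to Mrps6 for brain against muscle (0.48, SE 0.14, adjusted p = 0.37) and to Mrpl27 for testis against brain (-0.94, SE 0.18, adjusted p = 0.487) and for testis against muscle (-0.94, SE 0.18, adjusted p = 0.101).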

How the data were processed

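Total RNA of testis, brain and muscle was labelled with the Ambion MessageAmp kit, per the labels, and read on 22 Illumina bead arrays. The deposited table gave each probe's linear intensity with its detection p-value on every array, not normalized per the file headers; the submitters' processing notes name GenomeStudio 2011.1. A table of the authors' processed intensities, of unknown background subtraction and scaling, served as an alternative. Probes were named from the platform annotation, and all 110 member probes matched RefSeq (GRCm38.p6) by entrez identifier.

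The limma package (3.58.1, under R 4.3.3) supplied neqc, which applied normexp with controls read from the detection values, an offset of 16, quantile scaling and log2, within each tissue for genotype and over all arrays for tissue comparisons. Tests used lmFit and eBayes, two-sided, with Benjamini-Hochberg adjustment over all probes kept; every adjusted p in the text is limma's. Brain minus muscle had the mouse as a block, since the labels give the same mouse identifiers in both tissues. Deviations of brain and muscle from the same mouse correlated at 0.01 to 0.12. Testis comparisons had genotype as a covariate. The code was tested on simulated data. Folds against a group with no detected array are bounds.

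The members, gene lists and alternatives were chosen with earlier results of these data known. Named were the 8 largest differences in each direction per tissue comparison without overlap, at least 10 probes of smallest p per genotype comparison, genes whose probes passed in opposite directions, and Mrpl12 and the Mrps18 genes. Alternatives were other background settings, median scaling, the authors' values, other detection filters, 1 probe per gene, trend and robust variance, a replicate block, wild-type arrays alone and leaving out each replicate. Added later, after the data had been seen, were fits leaving out the brain libraries whose Sgms1 level opposed the label and the muscle libraries with Ucp1 signal. The number of arrays limits the precision.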

Additional observations from a re-analysis of the deposited data

Results flagged for a closer look

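In 60 groups of 4 arrays, 5 had 1 array far from the other 3; chance flags about 1 in 20 such groups. In brain, the Mrps25 probe ILMN_2680111 lay at 7.45 in mutant 2 and at 7.57 to 7.59 in the other mutants. The Mrpl51 probe ILMN_2645772 lay at 6.17 in mutant 4 and at 6.55 to 6.58 in the others. The Mrps18b probe ILMN_1226334 lay at 7.34 in mutant 3 and at 6.69 to 6.79 in the others, and the Mrps18b probe ILMN_2865239 at 8.90 in mutant 2 and at 9.07 to 9.10 in the others. In muscle, the Mrps10 probe ILMN_2691360 lay at 8.30 in mutant 1 and at 8.54 to 8.56 in the others. Brain mutant 2, which appears in 2 of the 5, is also a library whose Sgms1 level went against its label.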

How the results depend on the processing

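Counts of called mitoribosomal probes stayed within 1.5 times their value under every setting run, except in muscle between genotypes, where leaving out 1 array gave 0 to 1 (Mrps27, without mutant 3). Medians moved more. Under median scaling the genotype medians were 0.083 in testis, -0.046 in brain and -0.069 in muscle, beside 0.12, -0.046 and -0.054 over all probes. The tissue medians were then -0.11 for brain minus muscle, -1.62 for testis minus brain and -1.69 for testis minus muscle. Over all probes these were 0.34, -0.67 and -0.28. Without background correction the 3 tissue medians were -0.58, -0.17 and -0.69. For testis minus brain an offset of 50 gave -0.25, the authors' processed values -0.44 and no detection filter -0.25. Over all probes these were -0.07, -0.27 and 0.02. For testis minus muscle the same settings gave -0.99, -1.07 and -1.03, a stricter filter -1.24 and 1 probe per gene -1.25. Over all probes these were -0.10, -0.16, -0.03, -0.42 and -0.10.

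Median scaling turned the sign of 26 of the 89 called probes in brain minus muscle (19 then called the other way), 21 of 84 in testis minus brain (14) and 5 of 89 in testis minus muscle (2). Among the named probes these turned. In testis minus brain they became -0.0072 for Mrpl11, -0.047 and -0.13 for Mrps31, -0.067 for Mrpl38, -0.82 for Mrps11, -0.37 and -0.66 for Mrps18b and -1.24 for Mrps18a. In testis minus muscle Mrps11 became -0.19 and Mrpl11 -0.52, and in brain minus muscle an Mrpl49 probe 0.028. Between genotypes Mrpl42 became 0.0018 and Mrpl12 0.11 in testis, Mrps18a -0.039 and Mrps18b -0.041 in brain, and Mrpl12 -0.055 and Mrps18a -0.063 in muscle; none of these was called. Leaving out 1 array moved Mrpl12 between -0.17 and 0.014 in testis, between -0.0032 and 0.19 in brain and between -0.090 and 0.081 in muscle, Mrps18b between -0.035 and 0.10 in brain, and Mrps18a between -0.053 and 0.055 in muscle. Without muscle wild types 1 and 3, Mrpl12 was -0.034 and Mrps18a -0.026. The cause of these changes was not tested.

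Same-numbered arrays of wild type and mutant correlated at -0.01 to 0.14. Brain and muscle of the same mouse correlated no higher, at 0.01 to 0.12. These values therefore cannot tell whether replicate numbers pair the genotypes. With the replicate block the genotype counts stayed 0, the medians were -0.09, 0.036 and -0.00825, and in muscle Mrpl12 was -0.000783 and Mrps18a -0.054. Brain minus muscle with no replicate block called 90 probes (80.3% of all probes). With the block testis gave 84 calls against brain (83.1% of all probes) and 89 against muscle (84.4%). There the Mrps11 probe ILMN_2681946 lost its call against muscle (adjusted p = 0.0684 in limma). Wild-type arrays alone gave 63 and 80. There, with fewer arrays, some testis calls were lost. Against brain these were Mrpl12, Mrps18a, Mrps18c, an Mrps18b probe and the Mrps11 probe ILMN_2681946 (adjusted p 0.0521 to 0.364). Against muscle they were the Mrps18b probe ILMN_2865239 (-0.25, adjusted p = 0.138) and the Mrps11 probe ILMN_2681946 (-0.30, adjusted p = 0.0988).

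Limits: the brain arrays are brighter in their upper range, so levels between tissues rest on the normalization. Tissue, age and mice cannot be told apart for testis. Probes report single stretches of transcripts, and arrays do not measure protein or the ribosome itself. No slide information was used here.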

Other observations

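Mitoribosomal subunits that carry other symbols had 7 probes of 4 genes kept. Testis minus brain called 3 higher and 4 lower, where 36.2% of all probes were higher and 47.5% lower. Brain minus muscle called 2 higher and 3 lower (39.5% and 40.3% of all probes). Of 6 probes in testis minus muscle, 3 were higher and 3 lower (38.6% and 46.1%). The higher testis values were all of Dap3. Median scaling turned these counts, in the same order, to 1 and 3, 4 and 1, and 2 and 3. Dap3, a small-subunit GTPase-like protein, had 4 probes kept. Testis minus brain was 2.91, 1.71 and 1.15 on 3 of them and -0.40 on the fourth, and testis minus muscle was 3.34, 1.44, 1.18 and -0.37; all 8 values passed limma's test. Under median scaling the 3 higher values against brain were 1.42, 0.35 and -0.20, so that 1 turned sign, and those against muscle 2.82, 0.51 and 0.26. Brain minus muscle ran from -0.26 to 0.43 over the same probes, and from 0.16 to 1.40 under median scaling. Chchd1 was lower in testis than in muscle (-1.73) and lower in brain than in muscle (-1.39), and Ptcd3, a pentatricopeptide repeat protein of the small subunit, differed by -1.49 in testis minus brain and by -2.16 in testis minus muscle. These genes lie outside the symbol rule.

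Members with and without a promoter motif were set side by side as a description. In brain minus muscle the 8 probes of genes with an NRF1 match had a median of -0.83 and the 81 without one -0.77. The 18 probes of genes with an ETS match had a median of -0.46 and the 71 without one -1.04. In testis minus brain the medians with and without were -0.61 and -0.25 for ETS and -0.08 and -0.43 for NRF1, and in testis minus muscle -1.17 and -1.15 for ETS and -0.97 and -1.16 for NRF1. The probes of 1 gene share its promoter, so the points are not independent, and no test was made.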
